A study of Homo sapiens with 12 samples.

Results

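Interferon-stimulated effector genes are the genes that cells switch on when an interferon reaches its receptor, and 44 of them were taken by symbol from the 26364 genes counted in RKO, a human cell line grown from a colon carcinoma. Messenger RNA was sequenced from 12 libraries in 6 groups of 2. Cells overexpressing PRDM1-alpha and cells overexpressing PRDM1-beta were set against cells overexpressing GFP, and the PRDM1 knockout derivatives KO5 and KO2 against PRDM1 wild type cells. All groups are RKO cells, and the labels name no interferon or other treatment. The labels do not say whether a knockout derivative is 1 clone, how the overexpression was driven, or whether paired libraries stem from separate cultures, so that p-values measure only the spread between these libraries. PRDM1 encodes a zinc finger repressor, and the design text asks for its role in colon cancer cells.

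Type I and type III interferons act through JAK kinases. A complex that holds STAT2 and IRF9 then attaches to the interferon-stimulated response element, a repeated GAAA sequence, in the promoters of its targets. Many targets encode proteins that block viral RNA, viral entry or viral protein synthesis, and many cells without added interferon hold a basal level of their transcripts. PRDM1 is known from lymphocytes to bind a sequence that overlaps this element, and it was first described as a repressor of the interferon beta gene.

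Promoters are described first, because many of these genes are known to carry a response element there. The members and motifs were chosen with earlier results of these data known. RefSeq sequences (GRCh38.p14) from 250 bases before to 50 bases after the gene start were found for 36 of the 44 members. The core of the response element, GAAA repeated after any 2 bases and searched on both strands, was present in 25 of these 36 (69.4%), against 1255 of all 35116 promoters (3.57%). The narrower form with GT between the repeats, which is a case of that core and matches the known PRDM1 sequence, was present in 3 members, IFIT1, IFIT3 and TRIM21 (8.33%), against 71 of all promoters (0.202%). The promoters of these 3 and of GBP3 are shown 5′ to 3′ on the gene's strand, since they are compared below with the responses of their genes. Capitals mark matches to the wider core on either strand, and on the other strand a repeat reads TTTC.
IFIT1: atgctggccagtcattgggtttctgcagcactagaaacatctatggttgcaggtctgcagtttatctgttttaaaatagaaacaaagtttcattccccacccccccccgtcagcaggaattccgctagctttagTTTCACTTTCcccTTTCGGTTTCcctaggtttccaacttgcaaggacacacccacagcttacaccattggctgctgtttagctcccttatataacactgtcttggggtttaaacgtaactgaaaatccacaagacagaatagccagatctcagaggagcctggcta
IFIT3: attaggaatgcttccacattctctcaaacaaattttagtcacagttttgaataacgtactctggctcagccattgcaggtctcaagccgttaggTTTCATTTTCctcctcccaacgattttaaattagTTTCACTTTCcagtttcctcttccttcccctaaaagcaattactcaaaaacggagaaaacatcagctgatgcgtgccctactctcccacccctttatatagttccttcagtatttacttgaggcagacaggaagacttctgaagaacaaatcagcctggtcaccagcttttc
TRIM21: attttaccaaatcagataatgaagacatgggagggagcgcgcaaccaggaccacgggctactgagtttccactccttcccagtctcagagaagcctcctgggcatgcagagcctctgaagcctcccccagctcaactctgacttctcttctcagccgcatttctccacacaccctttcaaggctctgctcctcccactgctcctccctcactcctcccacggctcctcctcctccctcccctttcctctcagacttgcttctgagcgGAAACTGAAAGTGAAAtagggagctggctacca
GBP3: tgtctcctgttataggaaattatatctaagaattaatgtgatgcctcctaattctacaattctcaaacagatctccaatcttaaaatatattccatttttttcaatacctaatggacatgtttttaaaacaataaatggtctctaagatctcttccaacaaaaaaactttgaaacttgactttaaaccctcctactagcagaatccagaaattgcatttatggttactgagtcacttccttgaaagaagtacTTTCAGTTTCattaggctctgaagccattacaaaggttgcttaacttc
Counted from the gene start, the narrower form lay at -116 to -107 in IFIT1 and at -122 to -113 in IFIT3. In TRIM21 it lay after the start, at 24 to 33, and overlapped another match to the wider core at 18 to 27. GBP3 held the wider core alone, at 3 to 12. A match describes letters in this window and does not show that a factor binds there.

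The shallowest library held 19058967 gene counts and the deepest 55961821. With 3 counts as the floor, an absent gene could stand at up to 0.157 CPM (the count scaled to the library's gene counts) in the shallowest library, for counting error only. PRDM1 had 487 and 480 CPM with alpha and 1175 and 1176 CPM with beta, against 0.0787 and 0.218 CPM with GFP. It had 1 and 1 counts in KO5 and 0 and 1 counts in KO2, against 4 and 4 counts in wild type, so that the loss could not be read from these counts. Of the epithelial markers, KRT8 and KRT18 were abundant (494 CPM or more and 311 CPM or more in every group mean), whereas EPCAM had 0 counts and CDH1 and KRT19 had 0 to 1 counts in every library. Of 8 leukocyte markers CD68 alone was tested. The others had 0 to 6 counts per library, and CD3E, CSF1R and LYZ had 0 in every library.

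Without added interferon, RKO cells held transcripts of most members. In wild type, per kilobase of the longest annotated coding transcript, BST2, the membrane tether that holds budding virus, averaged 179 CPM per kb. IFITM3, which blocks viral entry, averaged 108 and its neighbour IFITM2 89.2 CPM per kb. ISG15, a ubiquitin-like modifier, averaged 54.3 and the antiviral GTPase gene MX1 18.8 CPM per kb. The classical induced genes IFIT1, IFIT3 and IFIT2 averaged only 0.608, 0.694 and 0.261 CPM per kb. Of the 44 members 31 had enough counts to be tested. The 13 too low to judge were OAS1, OAS2, OASL, MX2, GBP1, GBP2, HERC5, RSAD2, IFI27, IFI44, IFI44L, XAF1 and EPSTI1. IFI44L, XAF1 and EPSTI1 had 0 counts in every library, and no member of the 13 had more than 9 counts in a library. None of the 20 interferon genes searched had more than 3 counts in a library, and the only one with any count was IFNE.

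**Figure D1:**
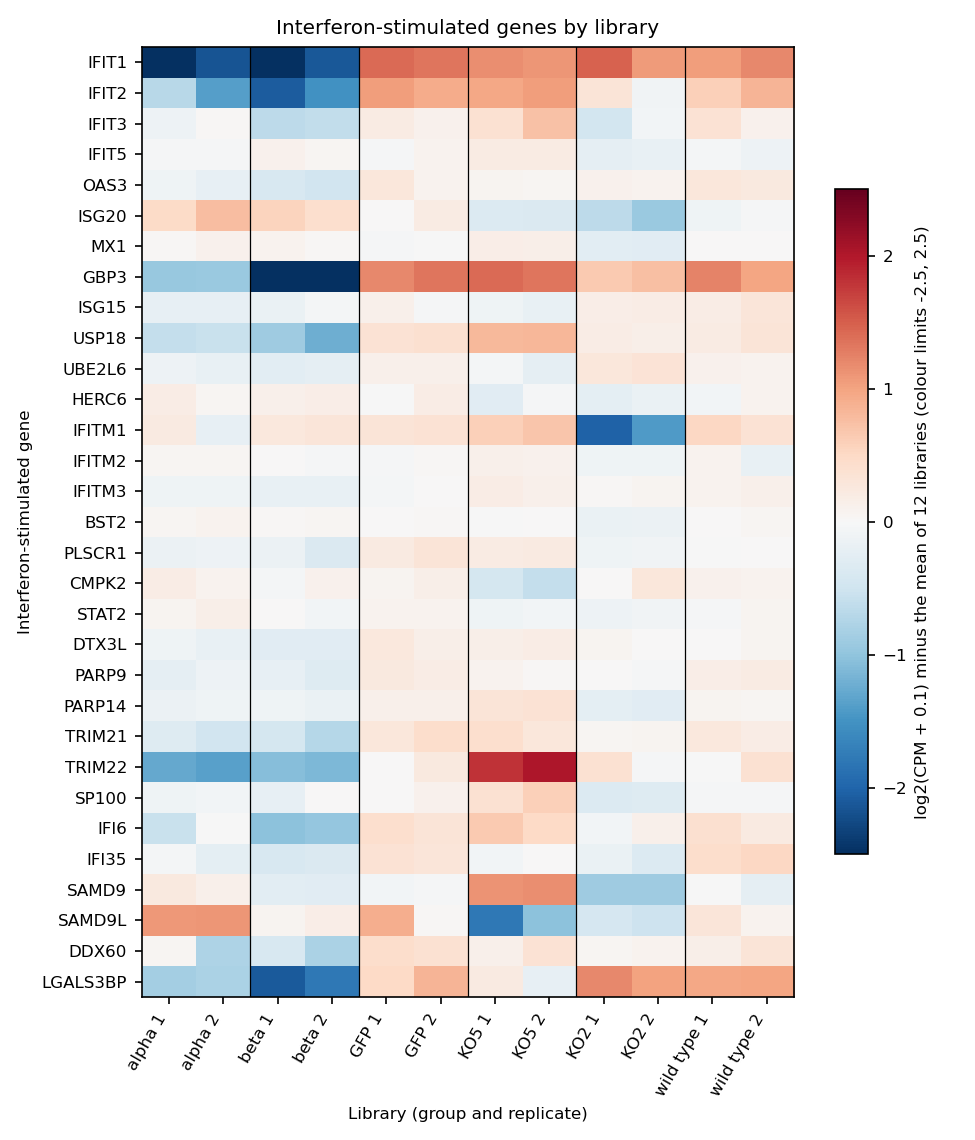
The 31 tested interferon-stimulated genes (rows) in the 12 libraries (columns), coloured by log2(CPM + 0.1) minus the gene's mean over the 12 libraries. IFIT1, IFIT2, GBP3, TRIM22 and LGALS3BP are pale to dark blue in the 4 alpha and beta libraries, TRIM22 and SAMD9 are red in KO5, and IFITM1 is blue in KO2.

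Many of these genes were lower in cells overexpressing either form of PRDM1, and 1 was higher. With alpha, 17 of the 31 tested members fell, 1 rose and 13 did not pass. Over all 12858 genes tested, 16.3% fell, 21.2% rose and 37.5% were called in either direction. With beta, 18 members fell and 0 rose, against 18% and 22.9% of all genes (40.9% in either direction). The median log2 fold change of the tested members was -0.27 with alpha and -0.47 with beta, against 0.01 over all genes in each comparison. At least 2-fold falls were called for 5 members with alpha and 8 with beta. The share of all genes at that cut was not counted, so these 2 counts have no background. The alpha and beta comparisons share the GFP libraries. Adjusted p-values here are from edgeR's quasi-likelihood test with Benjamini-Hochberg adjustment over all genes, and fold changes are log2 values ± SE with n = 2 libraries per group.

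The IFIT proteins bind viral RNA and hold back its translation, and of 4 tested genes 2 fell with alpha and 3 with beta. IFIT1 had 2 and 4 counts with alpha (0.0849 and 0.198 CPM) and 2 and 5 counts with beta (0.105 and 0.207 CPM), against 87 and 90 counts with GFP (3.42 and 3.27 CPM). All 4 overexpression libraries lay below both GFP libraries and below all other libraries. In RNA from a whole culture, fewer cells with a transcript and less of it per cell cannot be told apart. IFIT1 fell by 4.56 ± 0.61 with alpha (adjusted p = 1.84e-14) and fell by 4.33 ± 0.57 with beta (adjusted p = 3.71e-14). As a ratio of pooled CPM to GFP this was 0.0410 with alpha (95% exact interval 0.0149 to 0.0911) and 0.0484 with beta (0.0192 to 0.102), for counting error only.

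IFIT2 had 7 and 3 counts with alpha and 1 and 3 counts with beta, against 31 and 31 counts with GFP. It fell by 2.33 ± 0.50 with alpha and fell by 3.60 ± 0.75 with beta (adjusted p = 1.48e-05 and 1.8e-07). IFIT3 had 1.32 and 1.49 CPM with alpha and 0.892 and 0.910 CPM with beta, against 1.69 and 1.56 CPM with GFP. Its fall of 0.84 ± 0.29 passed with beta (adjusted p = 0.0146), and with alpha its value was -0.21 ± 0.26 (adjusted p = 0.556). The beta call was lost without beta replicate 1 (-0.83), beta replicate 2 (-0.87) or GFP replicate 1 (-0.79), and with the DESeq2 Wald test (-0.85, adjusted p = 0.0595). Both IFIT1 and IFIT3 hold the narrower promoter form shown above, and the difference between their changes was not tested. IFIT5, at 51.7 to 57.3 CPM in these 6 libraries, stood at -0.06 ± 0.05 with alpha and 0.06 ± 0.05 with beta.

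Of 2 tested interferon-induced GTPase genes, GBP3 fell with both forms and MX1 did not pass. GBP3, a guanylate-binding protein gene, had 1.95 and 1.98 CPM with alpha and 0.210 and 0.290 CPM with beta, against 8.97 and 9.92 CPM with GFP. The 3 groups did not overlap, and beta lay lowest. It fell by 2.26 ± 0.18 with alpha (adjusted p = 5.3e-17) and fell by 5.19 ± 0.45 with beta (adjusted p = 4.18e-23), to 11 counts in both beta libraries together. Of the 50-base stretches of the GBP3 transcript, 4.14% also occur in transcripts of other genes, with 3.08% in GBP1. GBP1 had 0 to 6 counts per library. MX1 had 63.6 to 69.5 CPM in these 6 libraries and stood at 0.08 ± 0.05 with each form.

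**Figure D2:**
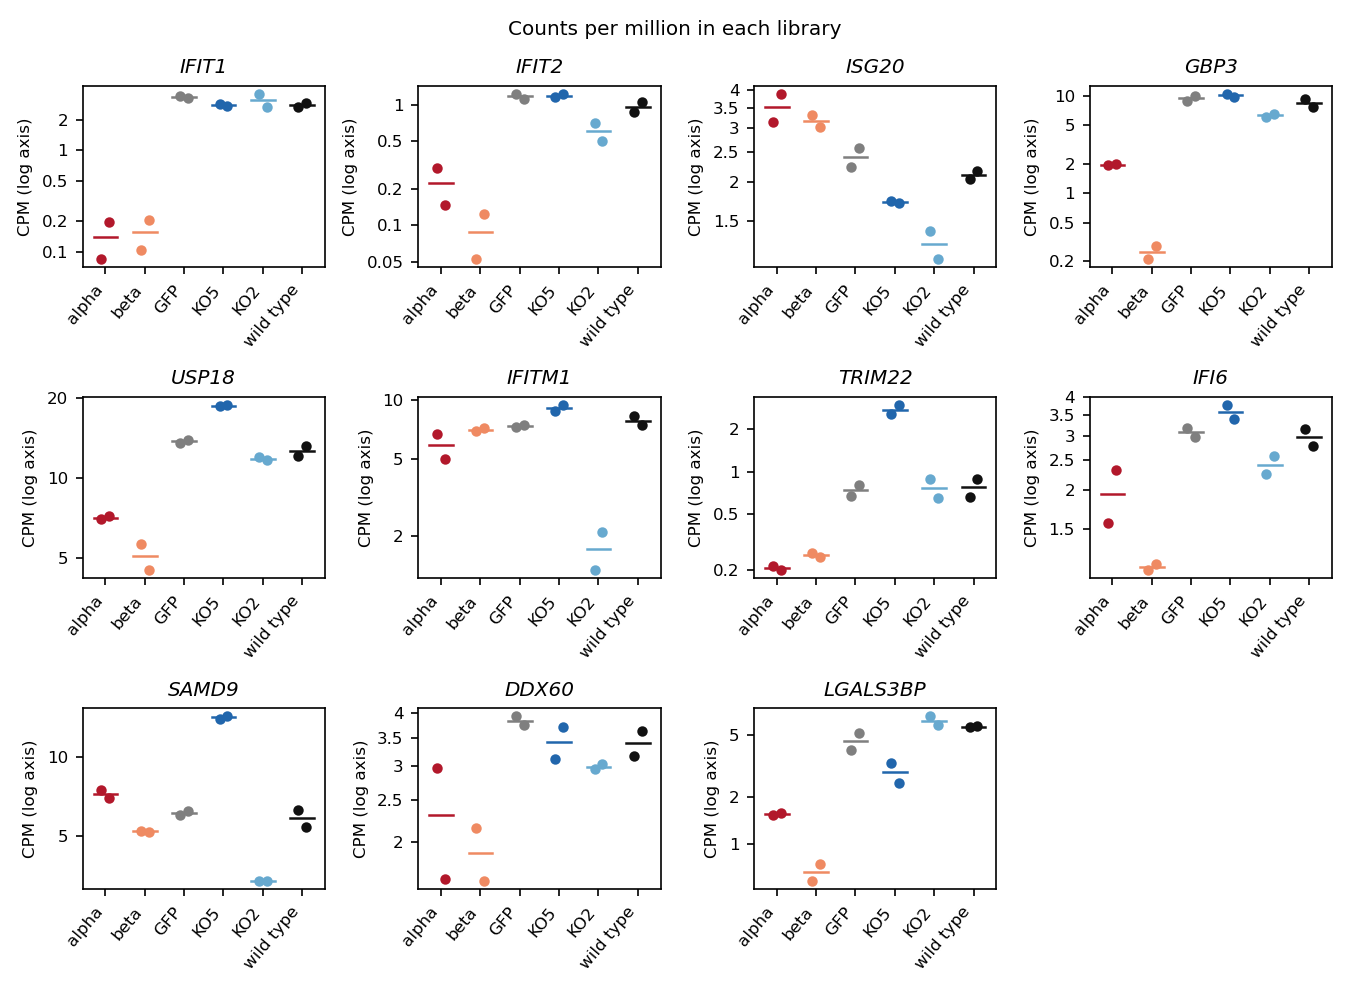
CPM in each library (points, log axis) and group means (lines) for the 11 members with a called log2 change of at least 1 in any comparison and at least 1 CPM in a group. IFIT1 sits between 0.0849 and 0.207 CPM with alpha and beta and between 2.66 and 3.57 CPM in all other libraries.

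Of 4 tested genes of the ISG15 system, 3 fell with alpha and 2 with beta. USP18, the protease that removes ISG15 and restrains receptor signalling, had 7.002 and 7.19 CPM with alpha and 5.67 and 4.51 CPM with beta, against 13.6 and 14.0 CPM with GFP. It fell by 0.95 ± 0.11 with alpha and fell by 1.45 ± 0.12 with beta (adjusted p = 7.18e-11 and 1.64e-15). Of its transcript's 50-base stretches 23% also occur in USP41, so that its counts could hold reads shared with that copy. UBE2L6, the enzyme that passes ISG15 on, fell by 0.27 ± 0.07 and by 0.36 ± 0.07. ISG15 itself fell by 0.25 ± 0.06 with alpha (adjusted p = 0.00122) and stood at -0.14 ± 0.06 with beta (adjusted p = 0.0537). The alpha call was lost without GFP replicate 1 (-0.17). With the GC content trend described below taken out, ISG15 was called lower with both forms (-0.37 and -0.28). The ligase gene HERC6 stood at 0.05 ± 0.09 and 0.06 ± 0.09.

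Members that act in transcription, ubiquitin transfer and ADP-ribosylation fell in 5 of 7 cases with each form. TRIM21, a ligase that binds antibody-coated virus, had 8.997 and 8.08 CPM with alpha and 8.29 and 6.91 CPM with beta, against 13.8 and 15.5 CPM with GFP, and fell by 0.77 ± 0.10 and by 0.95 ± 0.11. TRIM22, a ligase gene of low level, had 5 and 4 counts with alpha and 5 and 6 counts with beta, against 17 and 22 counts with GFP. It fell by 1.81 ± 0.54 with alpha and fell by 1.51 ± 0.50 with beta (adjusted p = 0.00223 and 0.00666). The beta call was lost without beta replicate 2 (-1.48) or GFP replicate 2 (-1.37).

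DTX3L and PARP9, whose products form a ligase complex, fell by 0.33 ± 0.06 and by 0.38 ± 0.08 with alpha and by 0.47 ± 0.06 and by 0.47 ± 0.08 with beta. PARP14, an ADP-ribosyltransferase gene, fell by 0.25 ± 0.05 and by 0.26 ± 0.05. STAT2, the factor through which the signal reaches these genes, did not pass, at 0.02 ± 0.06 with alpha and -0.12 ± 0.06 with beta. SP100, a nuclear body gene, stood at -0.15 ± 0.07 and -0.13 ± 0.07.

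Of the remaining groups, LGALS3BP, a secreted glycoprotein gene, changed most. It had 1.53 and 1.59 CPM with alpha and 0.577 and 0.745 CPM with beta, against 4.01 and 5.16 CPM with GFP, and fell by 1.56 ± 0.21 and by 2.77 ± 0.30 (adjusted p = 1.03e-08 and 2.65e-13). IFI6, which encodes a small membrane protein, had 1.57 and 2.33 CPM with alpha and 1.10 and 1.16 CPM with beta, against 3.19 and 2.98 CPM with GFP. It fell by 0.67 ± 0.21 and by 1.43 ± 0.25, and the alpha call was lost without alpha replicate 1 (-0.40). The helicase gene DDX60 had 2.97 and 1.64 CPM with alpha and 2.15 and 1.61 CPM with beta, against 3.94 and 3.74 CPM with GFP. It fell by 0.70 ± 0.20 and by 1.04 ± 0.21, and the alpha call was lost without alpha replicate 2 (-0.36). IFI35 fell by 0.48 ± 0.19 and by 0.74 ± 0.20. With alpha that call was lost without any 1 of the 4 libraries (alpha replicate 1 -0.60, alpha replicate 2 -0.38, GFP replicate 1 -0.45, GFP replicate 2 -0.51) and with the DESeq2 Wald test (-0.49, adjusted p = 0.135).

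Genes acting on RNA and at membranes were split. OAS3, which makes the activator of RNase L, had 66.1 and 61.7 CPM with alpha and 53.9 and 51.7 CPM with beta, against 87.2 and 76.6 CPM with GFP, and fell by 0.35 ± 0.05 and by 0.63 ± 0.05. The scramblase gene PLSCR1 fell by 0.41 ± 0.08 and by 0.54 ± 0.08. BST2, the member with the highest level per length, stood at 0.06 ± 0.04 and 0.03 ± 0.04, and CMPK2 at 0.04 ± 0.13 and -0.06 ± 0.14. IFITM3 fell by 0.16 ± 0.05 with beta (adjusted p = 0.00179), with 71.3 and 71.3 CPM with beta against 78.8 and 81.6 CPM with GFP. IFITM1, IFITM2 and IFITM3 share 42.3%, 15.8% and 20.3% of their 50-base stretches with other genes, mostly each other, so their counts are uncertain.

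ISG20, a nuclease that degrades viral RNA, was the only member that rose. It had 3.14 and 3.87 CPM with alpha and 3.31 and 3.02 CPM with beta, against 2.24 and 2.58 CPM with GFP. It rose by 0.53 ± 0.19 with alpha (adjusted p = 0.0186), a call lost without alpha replicate 2 (0.39) or GFP replicate 1 (0.43) and with the DESeq2 Wald test (adjusted p = 0.107), and stood at 0.39 ± 0.19 with beta. Among members too low to judge, IFI44 had 1 and 1 counts with alpha and 1 and 1 counts with beta, against 6 and 5 counts with GFP. Its ratio of pooled CPM was 0.220 (95% exact interval 0.0237 to 1.01) with alpha and 0.223 (0.0240 to 1.02) with beta.

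**Figure D3:**
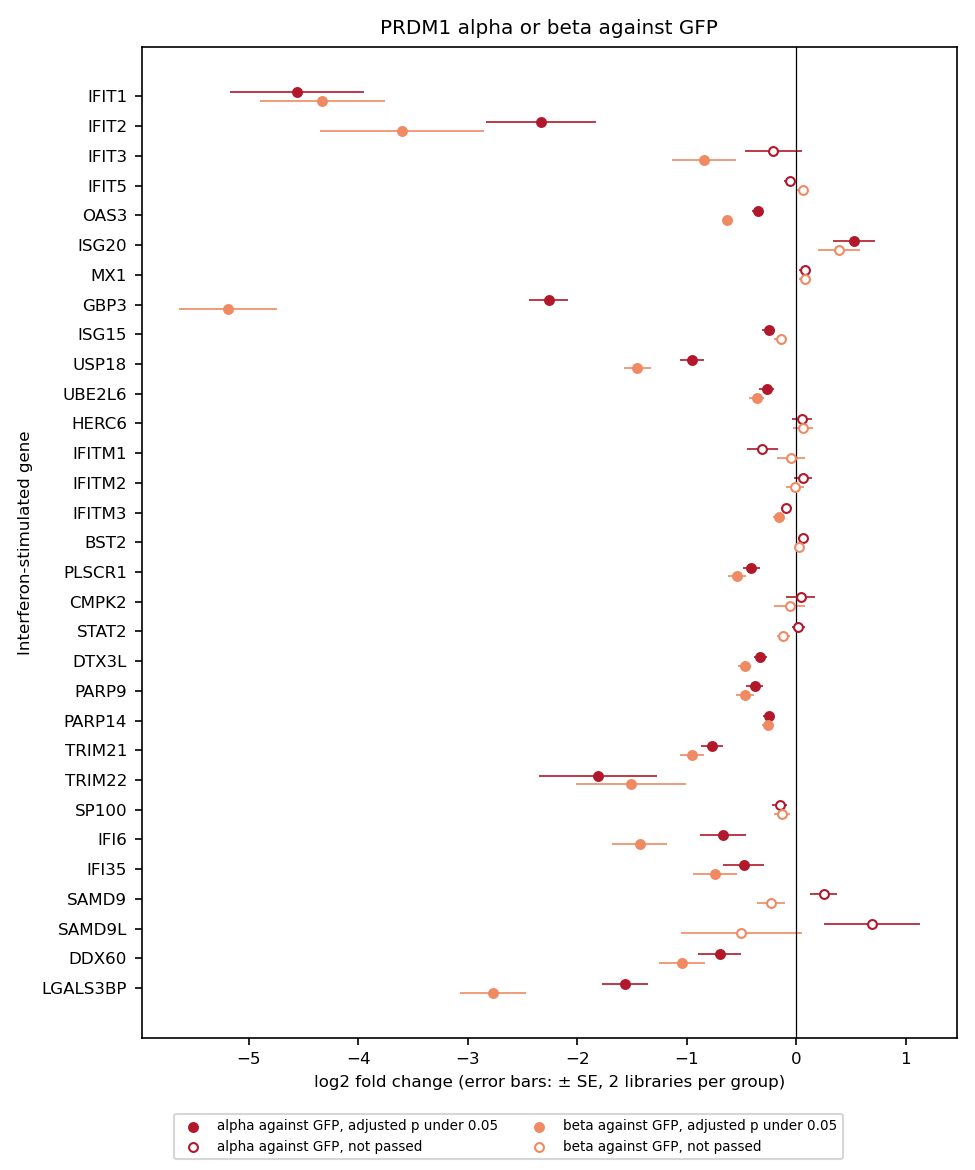
Log2 fold changes against GFP (points, with SE bars) of the 31 tested members, with alpha above beta in each row and filled points at adjusted p under 0.05. Filled points lie left of 0 except ISG20 with alpha, and IFIT1 with both forms and GBP3 with beta lie below -4.

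Among the 27 tested members with a promoter sequence, 11 of 19 that held the wider core fell with alpha and 12 of 19 with beta. Of the 8 without it, 3 fell with each form. Over all genes tested, 16.3% fell with alpha and 18% with beta, and genes other than members were not split by the core. The median log2 fold change of these members was -0.31 with the core and -0.06 without it for alpha, and -0.47 and -0.24 for beta. IFIT5, BST2 and MX1, with 3, 2 and 1 matches to the core, passed with neither form. The counts and medians describe few genes, and their difference was not tested.

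Where the forms differed, the level was lower with beta. Of the 31 members 5 were higher with alpha than with beta and 0 were lower, against 3.45% and 2.79% of all genes (6.24% in either direction). GBP3 differed by 2.93 ± 0.47 (adjusted p = 5.98e-08), LGALS3BP by 1.21 ± 0.34, USP18 by 0.50 ± 0.13, SAMD9, an antiviral translation inhibitor, by 0.47 ± 0.13 and OAS3 by 0.28 ± 0.05. The CPM of SAMD9 were 7.47 and 6.94 with alpha against 5.25 and 5.17 with beta. GBP3 and OAS3 kept the call without any 1 library. LGALS3BP (1.06 to 1.42) lost it without each of the 4 libraries, SAMD9 (0.41 to 0.48) without alpha replicate 1 or either beta library and with the DESeq2 Wald test (adjusted p = 0.101), and USP18 (0.32 to 0.51) without either alpha library or beta replicate 2. IFIT1 stood at -0.23 ± 0.82, an error too wide to tell the forms apart. PRDM1 transcripts themselves were lower with alpha than with beta, by 1.28 ± 0.03, so form and level cannot be told apart.

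Other genes of the pathway are read against all genes tested, of which 16.3% fell and 21.2% rose with alpha and 18% fell and 22.9% rose with beta. Of 9 tested signal transduction genes 3 fell and 1 rose with alpha, and 1 fell and 2 rose with beta, and these few genes were not tested as a set. Calls of single pathway genes were not recomputed under other settings or with libraries left out. IRF9 fell by 0.39 ± 0.16 with alpha and stood at -0.20 ± 0.16 with beta. Of 6 receptor genes 1 fell with each form, and 1 rose with alpha and 3 with beta. The lambda interferon receptor gene IFNLR1 fell by 0.28 ± 0.08 and by 0.22 ± 0.08. Of 10 tested sensing genes 5 fell and 0 rose with each form, among them the RNA sensor genes TLR3 (by 2.95 ± 0.25 and 6.05 ± 0.70), DDX58 (by 0.95 ± 0.17 and 1.03 ± 0.17) and IFIH1 (by 0.65 ± 0.13 and 0.82 ± 0.13) and the kinase gene IKBKE (by 0.53 ± 0.11 and 0.79 ± 0.12). TLR3 had 31 and 14 counts with alpha and 0 and 5 counts with beta, against 193 and 230 counts with GFP. The size of its fall with beta thus rests on few counts. Of 4 genes that restrain the signal, 0 changed with alpha and 2 rose with beta.

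The leukocyte marker CD68 rose by 0.57 ± 0.07 with alpha and by 0.43 ± 0.08 with beta, while the members fell. The summed level of the 8 leukocyte markers was 24.3 to 30.0 CPM in the alpha and beta libraries, against 18.4 to 19.9 CPM with GFP. Nearly all of that sum was CD68 itself, with 24.29 to 29.8 CPM in the alpha and beta libraries, against 19.87 and 18.28 CPM with GFP. PTPRC, the defining leukocyte marker, had 0 to 1 counts in any library. The summed level of 6 fibroblast markers was 13.2 and 13.4 CPM with alpha and 11.1 and 9.31 CPM with beta, against 6.33 and 6.11 CPM with GFP. Of these, 2 were tested: COL1A1, which rose by 0.74 ± 0.12 with alpha and stood at 0.31 ± 0.13 with beta, and POSTN, with 78 and 64 counts with alpha and 56 and 58 counts with beta against 2 and 1 counts with GFP. DCN had 0 counts in every library, and the 4 endothelial markers together stayed at or under 0.127 CPM. Of 2 tested epithelial markers, 1 fell and 0 rose with alpha, and 0 fell and 1 rose with beta. KRT8 averaged 494.3 CPM with alpha and 559.4 CPM with beta, against 590 CPM with GFP. KRT18 averaged 311.6 CPM with alpha and 353.5 CPM with beta, against 311.1 CPM with GFP. The part of these markers in the results was not tested.

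In KO5 more members rose than fell, and in KO2 more fell than rose. In KO5, 12 of the 31 tested members rose, 7 fell and 12 did not pass against wild type, beside 25.2% and 25.9% of all genes that rose and fell (51.2% in either direction). In KO2, 1 rose, 12 fell and 18 did not pass, beside 15.1% and 14.9% of all genes (30% in either direction). Called members made up 61.3% of those tested in KO5 and 41.9% in KO2. Both comparisons share the wild-type libraries. OAS3 fell by 0.17 ± 0.04 in KO5 and by 0.13 ± 0.04 in KO2, and IFI35 fell by 0.50 ± 0.16 in KO5 and by 0.71 ± 0.15 in KO2. Without KO2 replicate 1 (-0.14), KO2 replicate 2 (-0.12) or wild-type replicate 1 (-0.11) OAS3 lost its KO2 call, and without wild-type replicate 2 (-0.45) IFI35 lost its KO5 call. Those calls were also lost with the DESeq2 Wald test (OAS3 adjusted p = 0.0897, IFI35 adjusted p = 0.0689). The median log2 fold change of the members was 0.15 in KO5 and -0.15 in KO2, against 0.00 over all genes in each comparison.

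Cell type markers moved in the knockout derivatives too. The summed leukocyte markers were 12.8 and 12.1 CPM in KO5 and 12.8 and 11.2 CPM in KO2, against 19.3 and 18.3 CPM in wild type. Nearly all of that sum was CD68, with 12.59 and 11.86 CPM in KO5, 12.74 and 11.09 CPM in KO2, and 19.15 and 18.24 CPM in wild type. The sum is thus no observation separate from CD68, which fell by 0.58 ± 0.08 in KO5 and by 0.60 ± 0.07 in KO2. The epithelial markers KRT8 and KRT18 rose by 0.27 ± 0.03 and by 0.24 ± 0.03 in KO5, and in KO2 KRT8 rose by 0.09 ± 0.03 and KRT18 stood at 0.06 ± 0.03. The summed fibroblast markers were 6.59 and 6.61 CPM in KO5 and 6 and 5.03 CPM in KO2, against 6.66 and 8.43 CPM in wild type. COL1A1 fell by 0.31 ± 0.11 in KO5 and by 0.39 ± 0.11 in KO2, and POSTN had 10 and 13 counts in KO5 and 0 and 0 counts in KO2, against 1 and 2 counts in wild type. The part of these markers in the knockout results was not tested.

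TRIM22 and SAMD9 rose at least 2-fold in KO5. TRIM22 had 77 and 85 counts in KO5 and 39 and 23 counts in KO2, against 24 and 50 counts in wild type, or 2.56 and 2.98 CPM in KO5 and 0.887 and 0.646 CPM in KO2 against 0.658 and 0.894 CPM. It rose by 1.82 ± 0.22 in KO5 (adjusted p = 7.29e-10) and stood at 0.00 ± 0.26 in KO2. SAMD9 had 14.0 and 14.2 CPM in KO5 and 3.39 and 3.37 CPM in KO2, against 6.30 and 5.41 CPM in wild type. It rose by 1.31 ± 0.09 in KO5 (adjusted p = 7.43e-17) and fell by 0.74 ± 0.12 in KO2 (adjusted p = 1.22e-06), so that wild type lay between the derivatives. Its neighbour gene SAMD9L had 0 and 2 counts in KO5 and 7 and 5 counts in KO2, against 12 and 15 counts in wild type. The pooled ratio was 0.117 (95% exact interval 0.0135 to 0.465) in KO5, a fall that passed (adjusted p = 0.00173) but not without KO5 replicate 1 (-1.98).

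IFITM1 was the member most reduced in KO2. It had 8.79 and 9.45 CPM in KO5 and 1.34 and 2.11 CPM in KO2, against 8.27 and 7.45 CPM in wild type. It fell by 2.17 ± 0.16 in KO2 (adjusted p = 4.55e-17). In KO5 it rose by 0.25 ± 0.10 (adjusted p = 0.0417), a call lost without KO5 replicate 1 (0.30), KO5 replicate 2 (0.21) or wild-type replicate 2 (0.16) and with the DESeq2 Wald test (adjusted p = 0.193). IFITM2 and IFITM3, with which it shares sequence, stood at -0.02 ± 0.07 and -0.03 ± 0.04 in KO2. In KO5 IFITM2 rose by 0.19, a call lost without KO5 replicate 1 (0.17), KO5 replicate 2 (0.21) or wild-type replicate 2 (0.04). That call was also lost with only the compared groups in the edgeR fit (adjusted p = 0.301) and with the DESeq2 Wald test (adjusted p = 0.0801). ISG20 fell by 0.71 ± 0.19 in KO2, with 1.39 and 1.12 CPM against 2.06 and 2.18 CPM in wild type, and the call was lost without KO2 replicate 2 (-0.58). In KO5 it stood at -0.28 ± 0.19.

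LGALS3BP had 3.33 and 2.45 CPM in KO5 and 6.595 and 5.76 CPM in KO2, against 5.62 and 5.70 CPM in wild type. It fell by 0.94 ± 0.15 in KO5 (adjusted p = 2.52e-07) and stood at 0.17 ± 0.11 in KO2. CMPK2, a mitochondrial nucleotide kinase gene, had 3.86 and 3.43 CPM in KO5 and 5.25 and 6.38 CPM in KO2, against 5.64 and 5.58 CPM in wild type, and fell by 0.59 ± 0.13 in KO5. USP18 had 18.8 and 18.9 CPM in KO5 and 12.01 and 11.7 CPM in KO2, against 12.2 and 13.3 CPM in wild type, and rose by 0.58 ± 0.07 in KO5. SP100 rose by 0.55 ± 0.05 in KO5 and fell by 0.28 ± 0.06 in KO2. ISG15 fell by 0.36 ± 0.05 in KO5 and stood at -0.03 ± 0.05 in KO2. With the GC content trend described below taken out, its KO5 value was -0.12 (adjusted p = 0.0489).

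GBP3, so low with beta, had 10.4 and 9.87 CPM in KO5 and 6.10 and 6.54 CPM in KO2, against 9.23 and 7.74 CPM in wild type. It rose by 0.31 ± 0.09 in KO5 (adjusted p = 0.0059) and fell by 0.37 ± 0.10 in KO2 (adjusted p = 0.00245). The rise was lost without KO5 replicate 1 (0.26) or wild-type replicate 2 (0.16), and the fall without KO2 replicate 1 (-0.32) or wild-type replicate 1 (-0.26). With the DESeq2 Wald test both were lost (adjusted p = 0.0923 in KO5 and 0.0584 in KO2). IFIT1 passed in neither derivative, with 2.86 and 2.77 CPM in KO5 and 3.57 and 2.67 CPM in KO2, against 2.66 and 2.95 CPM in wild type, and stood at 0.02 ± 0.16 and 0.20 ± 0.15. IFIT2 had 1.17 and 1.23 CPM in KO5 and 0.705 and 0.506 CPM in KO2, against 0.877 and 1.05 CPM in wild type, and passed in neither.

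**Figure D4:**
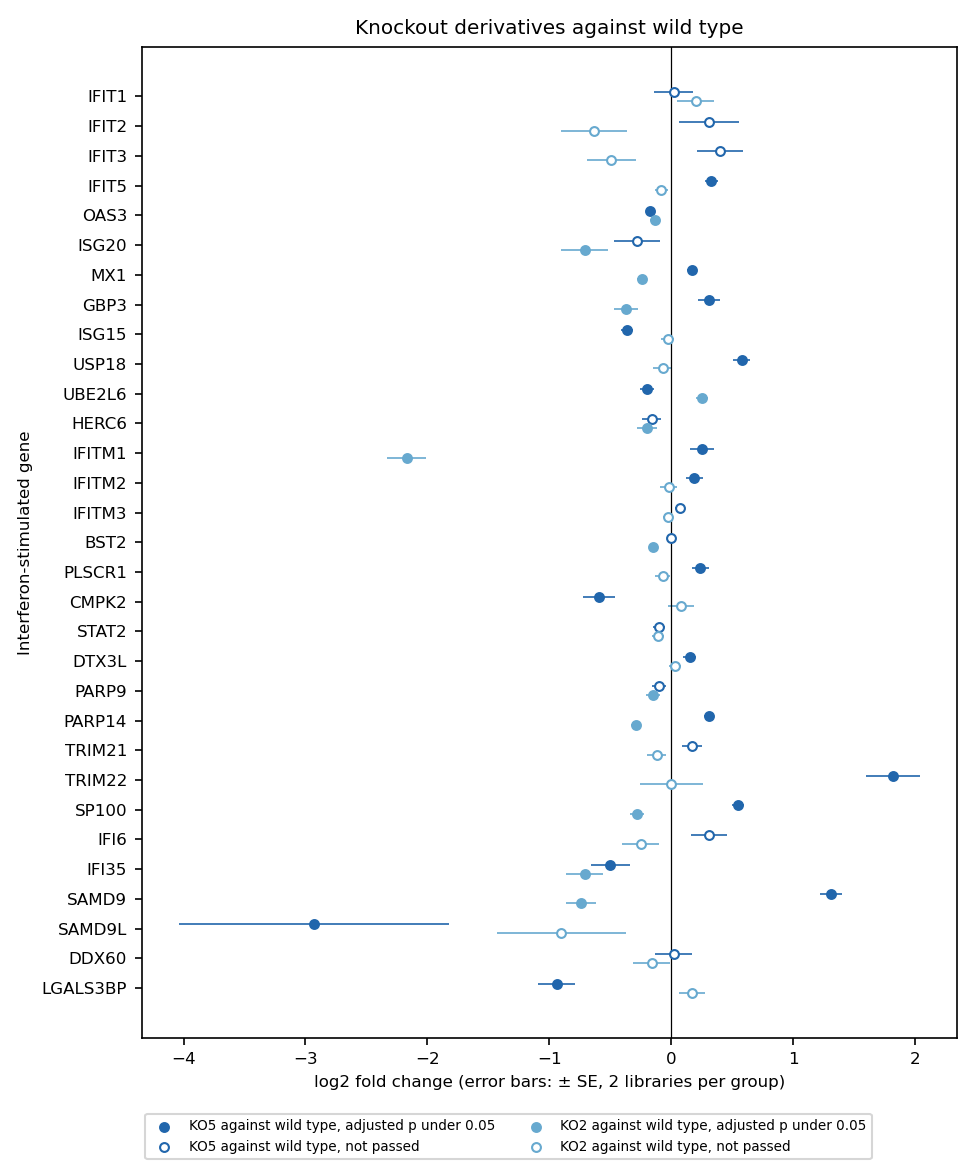
Log2 fold changes against wild type (points, with SE bars) of the 31 tested members, with KO5 above KO2 in each row and filled points at adjusted p under 0.05. TRIM22 and SAMD9 lie furthest right in KO5, IFITM1 lies furthest left in KO2, and IFIT1 is open for both.

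PARP14 had 100.8 and 103.7 CPM in KO5 and 67.7 and 66.2 CPM in KO2, against 84.8 and 83.7 CPM in wild type. It rose by 0.31 ± 0.04 in KO5 and fell by 0.29 ± 0.04 in KO2, so that wild type lay between the derivatives. PLSCR1 rose by 0.24 ± 0.07 in KO5 and stood at -0.07 ± 0.06 in KO2. DTX3L rose by 0.15 ± 0.05 in KO5, a call lost without KO5 replicate 2 (0.13) or wild-type replicate 1 (0.13), and stood at 0.03 ± 0.05 in KO2. PARP9 stood at -0.10 ± 0.06 in KO5 and fell by 0.15 ± 0.06 in KO2, a call lost without any 1 of the 4 libraries (-0.13 to -0.17), with the DESeq2 Wald test (adjusted p = 0.229) and with no low-count filter (adjusted p = 0.0540).

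Set directly against KO2, KO5 had a higher level of 18 of the 31 members and a lower level of 4, beside 26.9% and 28.1% of all genes (54.9% in either direction). The median log2 fold change was 0.21, against -0.01 over all genes. UBE2L6, the enzyme of the ISG15 system, had 26.1 and 23.2 CPM in KO5 and 32.9 and 34.1 CPM in KO2, against 28.98 and 28.7 CPM in wild type. It fell by 0.20 ± 0.06 in KO5, a call lost without KO5 replicate 2 (-0.11), and rose by 0.25 ± 0.05 in KO2, so that wild type again lay between the derivatives. MX1 had 72.7 and 71.3 CPM in KO5 and 54.2 and 53.5 CPM in KO2, against 65.1 and 65.6 CPM in wild type, and rose by 0.17 ± 0.04 in KO5 and fell by 0.24 ± 0.04 in KO2.

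The pathway lists in the knockout derivatives are read against the shares of all genes, 25.2% higher and 25.9% lower in KO5 and 15.1% higher and 14.9% lower in KO2. Of 9 tested signal transduction genes, 1 rose and 3 fell in KO5, and 0 rose and 4 fell in KO2. IRF7, a factor that amplifies the response, stood at -0.18 ± 0.17 in KO5 and fell by 1.24 ± 0.20 in KO2. Of 6 receptor genes, 3 rose and 0 fell in KO5, and 0 rose and 3 fell in KO2. Of 10 tested sensing genes, 7 rose and 2 fell in KO5, and 2 rose and 2 fell in KO2, near the KO2 shares. Of 4 genes that restrain the signal, 0 rose in either derivative, 2 fell in KO5 (SOCS1 by 1.21 ± 0.47 and SOCS3 by 0.59 ± 0.08) and 1 fell in KO2 (SOCS3 by 0.19 ± 0.07).

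KO5 libraries also differed from wild type along the GC content of transcripts (Spearman correlation of the log2 fold change with GC content -0.52 over 12122 genes, which are not replicates), and KO2 libraries less so (-0.07). With the GC trend taken out of each library, 12 members rose and 7 fell in KO5, beside 20.7% and 19.9% of all genes (40.6% in either direction). Of the 19 called before, 14 were called in the same direction. GBP3 (0.21), PLSCR1 (0.12), DTX3L (0.07), UBE2L6 (-0.08) and IFI35 (-0.35) lost the KO5 call. BST2 (0.12), IFITM3 (0.18) and IFI6 (0.41) were newly called higher, and HERC6 (-0.21) and PARP9 (-0.18) newly called lower.

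Few members passed between the GFP cells and wild type. Against wild type, 2 of the 31 members rose with GFP (PLSCR1 by 0.28 ± 0.07 and DTX3L by 0.16 ± 0.05) and 2 fell (ISG15 by 0.19 ± 0.05 and IFITM3 by 0.12 ± 0.04), beside 8.81% and 10.2% of all genes (19% in either direction). PLSCR1 had 21.5 and 23.0 CPM with GFP against 18.2 and 18.4 CPM in wild type. The GFP fold changes followed GC content (Spearman -0.67 over 12122 genes), and none of the 4 calls remained with that trend taken out, when 1.09% of all genes were called. Without GFP replicate 2 PLSCR1 (0.23) and ISG15 (-0.11) lost the call, without GFP replicate 1 DTX3L (0.10) and IFITM3 (-0.10), without wild-type replicate 1 DTX3L (0.14), and without wild-type replicate 2 ISG15 (-0.13), DTX3L (0.19) and IFITM3 (-0.10). With the DESeq2 Wald test ISG15, IFITM3 and DTX3L lost the call (adjusted p = 0.0592, 0.0747 and 0.0534). For alpha and beta against GFP the same correlation was 0.18 and 0.14, and 18 and 18 members called before kept their call and direction. With the trend taken out, 36.5% and 40.5% of all genes were called. IFITM3 was newly called lower with alpha (-0.12) and ISG15 with beta (-0.28).

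The authors compared overexpression with knockout, a contrast in which added PRDM1 and lost PRDM1 cannot be told apart. In the present fit, with each form and each derivative weighted equally, 20 of the 31 members were lower and 8 higher in the overexpression libraries, beside 27.7% and 31% of all genes (58.8% in either direction). IFIT1 stood at -4.31 ± 0.42, GBP3 at -3.51 ± 0.24 and TRIM22 at -2.68 ± 0.35, and ISG20 at 1.14 ± 0.14. In the authors' deposited table for alpha, 10 members were lower and 1 higher among the 30 with an adjusted p. In the authors' deposited table for beta, 13 were lower and 1 higher among 30. The shares of all genes called by the authors were not counted, so these member counts have no background. In the authors' deposited tables IFIT1 stood at -1.78 ± 0.20 for alpha and -1.79 ± 0.21 for beta, and GBP3 at -1.30 ± 0.19 and -2.28 ± 0.20. Whether those fold changes were shrunken is not given in the sources used here. The deposited errors were small even for a nearly absent member, with GBP2 (0 to 1 counts per library) at 0 ± 0.04 for each form. Sizes of change are therefore not compared between the deposited tables and the present fit.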

How the data were processed

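Messenger RNA libraries (12) were made with a kit that keeps the strand, per the labels' protocols. TopHat, Bowtie2 and Cufflinks were used with hg19 per the submitters' processing notes; versions, the read counter and its strand setting are not given in the sources used here, so overlapping and antisense genes cannot be told apart. The authors deposited whole-read counts per gene symbol, not normalized; entries for no gene (9.13% to 10.8% of all counts) and for ambiguous reads (1.66% to 1.75%) entered neither totals nor tests. Deposited by the authors were also log2 fold changes with standard errors, p-values and adjusted p-values from DESeq2, per the file headers and names. A further table, named for overexpression alone, repeats the beta table byte for byte and stayed out.

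The fit used edgeR 4.0.16 under R 4.3.3: filterByExpr by group (12858 genes left), TMM scaling, and glmQLFit (robust) and glmQLFTest over all 12 libraries with a mean per group. Standard errors are Wald errors of the fitted means. Genes passed at an adjusted p under 0.05. CPM were computed on gene counts. Intervals of pooled ratios are 95% exact binomial intervals. The method was tested on simulated data. Transcript lengths, GC content and shared 50-base stretches came from GENCODE v29 (GRCh38) by symbol, with no coordinates used; the shared stretches stand in for the planned protein identity. The members, lists and promoter motifs were chosen with earlier results of these data known. Library values are printed for the 11 members with a called log2 change of at least 1 and at least 1 CPM in a group, and for others whose calls are described. Alternatives were DESeq2 1.42.0 size factors and Wald test, no low-count filter, only the compared groups, a replicate block, a GC correction by library, PRDM1 left out, and each library left out in turn. Member calls were recomputed under these alternatives, and the calls of single pathway and marker genes were not. Libraries of a group differed by more than counting noise (chi-square per degree of freedom 1.66 to 2.72), so none was a repeat deposit.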

Additional observations from a re-analysis of the deposited data

Results flagged for a closer look

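The effect of knockout differed between the derivatives for 22 of the 31 tested members, by the direct test of KO5 against KO2 (edgeR's quasi-likelihood test, adjusted p under 0.05), beside 54.9% of all genes tested. In 18 of them the level was higher in KO5 and in 4 it was lower, beside 26.9% and 28.1% of all genes. The difference between derivatives on the log2 scale was 2.42 for IFITM1 (adjusted p = 1.39e-18), 2.05 for SAMD9 (adjusted p = 3.97e-22), 1.82 for TRIM22 (adjusted p = 1.41e-09) and -1.11 for LGALS3BP (adjusted p = 4.81e-09). Smaller differences with the level higher in KO5 were called for IFIT2 (0.94), IFIT3 (0.88), SP100 (0.82), GBP3 (0.68), USP18 (0.65), PARP14 (0.60), IFI6 (0.57), IFIT5 (0.41), MX1 (0.41), PLSCR1 (0.31), TRIM21 (0.29), IFITM2 (0.21), BST2 (0.15), DTX3L (0.12) and IFITM3 (0.09). The level was lower in KO5 for CMPK2 (-0.67), UBE2L6 (-0.45) and ISG15 (-0.33). The KO5 libraries also stood apart along GC content against KO2 (Spearman -0.42 over 12122 genes). With that trend taken out, 21 of the 22 calls kept their direction and DTX3L (0.06) lost its call, when 50% of all genes were called. ISG15 then stood at -0.13, IFITM3 at 0.2 and BST2 at 0.26. ISG20 (0.5) and SAMD9L (-2.15) were newly called. With the DESeq2 Wald test IFIT2 (0.97, adjusted p = 0.0563), IFITM3 (0.10, adjusted p = 0.0779) and DTX3L (adjusted p = 0.127) lost the call, and with no low-count filter IFITM3 (adjusted p = 0.0560) and DTX3L (adjusted p = 0.0720). Without 1 library at a time, calls were lost for IFITM2 (0.19 to 0.23 without any 1 of the 4), DTX3L (0.09 to 0.14 without any 1 of the 4), IFITM3 (0.08 without KO2 replicate 1 and 0.06 without KO5 replicate 1), TRIM21 (0.22 without KO5 replicate 1) and IFI6 (0.46 without KO2 replicate 1). The labels do not say how the derivatives were made beyond CRISPR/Cas9, and whether a difference follows PRDM1 or the derivative cannot be told apart.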

How the results depend on the processing

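Over the settings other than left-out libraries, falls ranged from 16 to 18 with alpha (17 as reported) and from 17 to 19 with beta (18), KO5 rises from 9 to 12 (12) and KO2 falls from 8 to 12 (12). With the DESeq2 Wald test, 0 members rose with alpha (1 as reported), and 0 rose and 0 fell with GFP against wild type (2 and 2); DESeq2 gave PLSCR1 no adjusted p there. With the GC trend removed, 0 rose and 0 fell with GFP against wild type. With 1 library left out at a time, rises with alpha ranged from 0 to 1, members higher with alpha than with beta from 2 to 3 (5 as reported), and GFP against wild type from 1 to 3 rises and 0 to 2 falls. Left-out libraries also gave 15 to 16 falls with alpha, 17 to 18 with beta, 9 to 11 rises in KO5 and 8 to 11 falls in KO2. Over 127 called member values and 1508 recomputed ones, 1382 kept their call, 126 fell short of the threshold and 0 changed sign; the causes were not tested. The DESeq2 Wald test ended 21 of 126 calls, the most of the settings that keep all libraries. Beside those named above, these were HERC6 in KO2, and CMPK2, STAT2 and SAMD9 in overexpression against knockout. Rises of members with beta were 0 in every setting named in the processing notes, DESeq2 included.

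The replicate block, fitted on numbers that the labels do not tie to a shared culture, cost 2 of the 127 calls (HERC6 in KO2, -0.18, and SAMD9 in overexpression against knockout, -0.19). Same-numbered libraries did not deviate together (correlations -0.07 to 0.06 over 15 pairs of groups). The median of all genes moved by under 0.1 (log2) under each scaling. The 13 untested members had at most 9 counts in a library, which is too few for a test. The libraries held 19058967 to 55961821 gene counts, and a level under the floor of 3 counts cannot be told from absence.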
